A study of Mus musculus with 2 samples.

Results

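The 10 genes described here are expressed at high level by fat cells or encode hormones that fat cells secrete. They are the transcription factor Pparg, the lipid handling genes Fabp4, Cd36 and Lpl, the lipid droplet genes Plin1 and Cidec, and the secreted adipokines Adipoq, Lep, Retn and Cfd. They were chosen by name, with their levels in these libraries already known, out of 55450 annotated genes, and each symbol matched 1 gene record. Their levels are therefore a description and carry no test. Total RNA was sequenced from adrenal glands of female B6CASTF1/J mice at 36 days of age, a hybrid of the B6 and CAST strains, with no treatment or engineered allele in the labels. The study has 1 group of 2 libraries, replicate 1 and replicate 2, each made from 300 ng of RNA with ERCC spike-in transcripts added. The sample characteristics number the animals differently, but both libraries carry the same donor identifier and the same animal number in the library description, so the SDs below may come from libraries of a shared animal. With 1 group there is no contrast, and every difference given is replicate 1 against replicate 2.

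Fat cells store triglyceride in a large droplet and release it on hormonal demand. The nuclear receptor PPAR gamma, encoded by Pparg, drives their formation and switches on many of the other genes named here in fat. The adrenal gland lies in a pad of brown and white fat, and its cortex is itself rich in lipid droplets that hold cholesterol esters, so several of the enzymes of fat storage are also known in steroid-making cells. Endothelial cells are known to carry Cd36 and Fabp4, and macrophages Cd36, Lpl and Pparg, so these are not markers of fat cells alone.

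The gene tables held 35684781 expected counts in replicate 1 and 38701795 in replicate 2. All 8 of the listed adrenal cortex markers were at 1 TPM or more in both libraries (TPM is a transcript abundance corrected for length and depth), with summed levels of 17024 TPM in replicate 1 and 17401 in replicate 2, and so were all 6 medulla markers, with 1484 and 1115 TPM. The libraries stood apart in skeletal muscle markers, which summed to 298 TPM in replicate 1 and 2.65 in replicate 2, with 7 of 8 genes 2-fold or more higher in replicate 1. Liver markers summed to 34.7 TPM in replicate 1 and 2.17 in replicate 2, and of these 6 genes Serpina1c was listed at 0 in replicate 2. The members did not show this difference: summed over the 10 genes, the level was 1888 TPM in replicate 1 and 1955 in replicate 2.

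Of the 10 genes, 9 were at 1 TPM or more in both libraries, the level called detected here, against 23.0% of all annotated genes and 53.1% of the nuclear protein-coding genes. Fabp4, Cfd, Cd36, Lpl and Plin1 stood at 100 TPM or more in both, which 2.27% of the nuclear protein-coding genes did. The median of the members' mean levels was 124.8 TPM, beside a median of 10.3 TPM over the detected nuclear protein-coding genes. Together the 10 genes made up 0.606% of the nuclear protein-coding TPM in replicate 1 and 0.626% in replicate 2. They took 0.238% and 0.245% of all counts. In bulk tissue a larger share of cells that express a gene and more of its RNA per cell cannot be told apart.

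Fabp4 led with 769 ± 28.9 TPM (SD, n = 2, as for all means below), the 17th highest of the nuclear protein-coding genes. Cfd followed with 450 ± 48.9 TPM, 53rd in that order. Cd36, Lpl and Plin1, at 163 ± 0.735, 161 ± 14.4 and 152 ± 0.247 TPM, differed from each other by less than the SD of Lpl, and their order changed between the libraries: Cd36 was highest of the 3 in replicate 1, and Lpl in replicate 2. Cidec at 98.0 ± 9.37 TPM and Adipoq at 85.4 ± 3.39 TPM came next, and their values did not overlap. Retn had 27.6 ± 0.488 TPM and Pparg 15.5 ± 0.233 TPM. Lep was last with 0.545 ± 0.120 TPM, under the detection level in both libraries. Fabp4 alone was 41.8% of the members' summed TPM in replicate 1 and 38.3% in replicate 2, and its TPM was 1253 and 1628 times that of Lep.

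**Figure D1:**
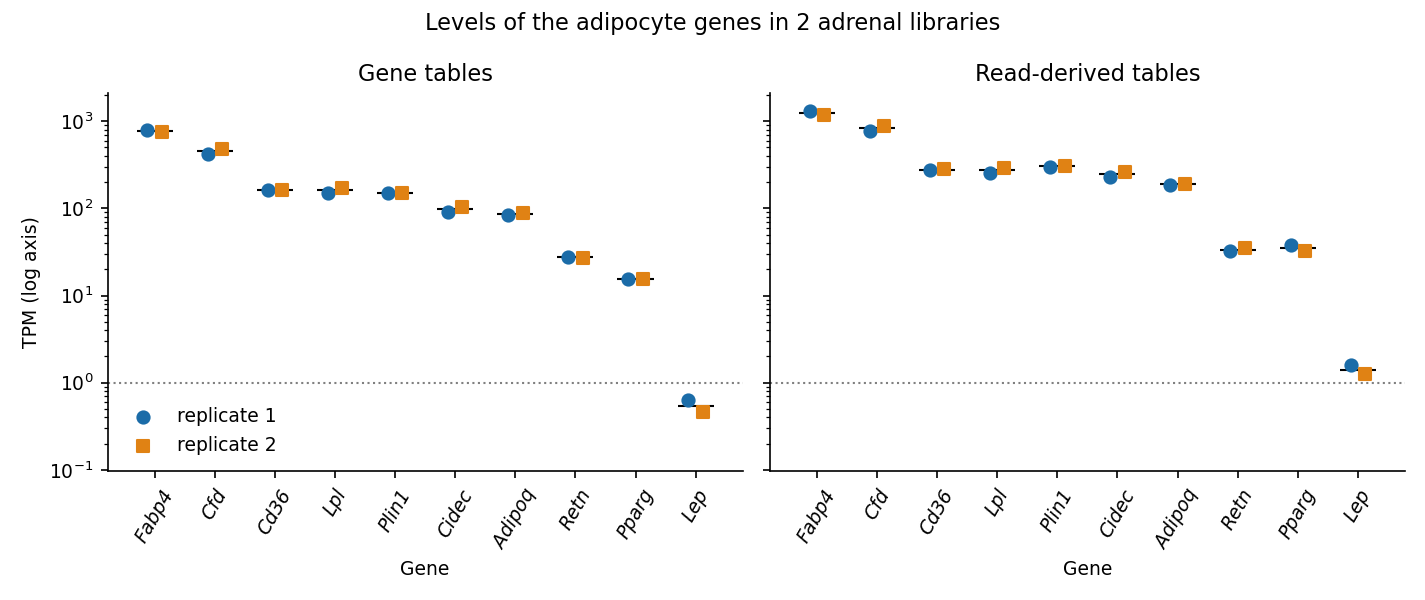
Level of each gene in TPM on a log axis in the deposited gene tables (left) and in the read-derived transcript tables summed per gene (right). Circles are replicate 1, squares replicate 2, the dash is their mean and the dotted line is 1 TPM. Fabp4 is highest in both panels, and Lep, at 0.63 and 0.46 TPM in the gene tables, is the gene below the line at the left.

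Pparg (ENSMUSG00000000440.12, chr6:115360951-115490399 on the plus strand of mm10) encodes the nuclear receptor that heads the fat cell programme. It has a pair of promoters that give proteins with different first residues: gamma1 is made in many tissues, while the downstream promoter that gives gamma2, with a longer amino end, is used mainly in fat. Its level was 15.65 TPM in replicate 1 and 15.3 in replicate 2, from 901 and 976 counts. The libraries were close. Transcripts from the different promoters are told apart by their first exons, so the coding part of the exon that marks gamma2 is shown. It is the first coding exon of Pparg-201, the annotated transcript with the gamma2 start (chr6:115422111-115422192, plus strand, mm10). It is set beside the first coding bases of Pparg-202, a transcript with the gamma1 start (chr6:115439848-115439907, plus strand). Capitals mark the start codons.

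Pparg-201 first coding exon: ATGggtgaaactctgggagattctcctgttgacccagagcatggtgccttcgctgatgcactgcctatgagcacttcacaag

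Pparg-202 first coding bases: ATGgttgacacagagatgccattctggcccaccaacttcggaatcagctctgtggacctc

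The 2 kinds of deposited transcript table gave different answers on the gamma2 start. In the table derived from transcriptome alignments, Pparg-201 had 8.22 TPM in replicate 1 and 7.52 in replicate 2, from 495 and 485 expected counts, which was 52.6% and 49.1% of the gene's TPM. In the table derived directly from the reads, the same transcript had 0.309 TPM in replicate 1 and 0.0185 in replicate 2, from 11.3 and 0.723 estimated counts, or 0.820% and 0.0563% of the gene. The tables thus disagreed in the same direction in both libraries. The deposited intervals of the alignment-derived TPM, whose level is not given in the sources used here, ran from 6.23 to 9.995 in replicate 1 and from 5.69 to 9.26 in replicate 2, and did not reach the read-derived values. Of the 1737 stretches of 31 bases in Pparg-201, 126 occur in no other Pparg transcript.

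The gamma1 starts mirrored this. Pparg-202, Pparg-204 and Pparg-206, which begin at the upstream starts, together held 46.3% of the alignment-derived TPM in replicate 1 and 48.6% in replicate 2. In the read-derived table they held 92.7% and 94.2%. Pparg-204 had 32.5% and 38.4% of the gene in the alignment-derived table and 34.9% and 43.2% in the read-derived table, so it moved least of the 3. Pparg-206, a transcript of 497 bases, had 7.99% and 3.72% in the alignment-derived table against 37.1% and 26.8% in the read-derived table, on 18 and 8.72 counts against 62.9 and 41.7. Pparg-203, a retained-intron transcript, was listed at 0 throughout. Which of the tables is nearer to the RNA of the gland was not tested, and the share of gamma2 in these libraries cannot be given from them.

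Because the tables differ on which of the start regions was in use, the bases before both are shown, from the RefSeq promoter table on GRCm38.p6, the patch release that mm10 corresponds to. The window before Pparg-201 is chr6:115421816-115422065 and that before Pparg-204 is chr6:115362099-115362291, both on the plus strand. Capitals mark CCAAT, the CCAAT box, or its reverse complement.

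Pparg-201 upstream window: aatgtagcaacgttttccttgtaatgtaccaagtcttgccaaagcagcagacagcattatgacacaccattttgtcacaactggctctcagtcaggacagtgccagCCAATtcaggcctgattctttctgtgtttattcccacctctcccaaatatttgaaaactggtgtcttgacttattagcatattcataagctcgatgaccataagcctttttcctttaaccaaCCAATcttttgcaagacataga

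Pparg-204 upstream window: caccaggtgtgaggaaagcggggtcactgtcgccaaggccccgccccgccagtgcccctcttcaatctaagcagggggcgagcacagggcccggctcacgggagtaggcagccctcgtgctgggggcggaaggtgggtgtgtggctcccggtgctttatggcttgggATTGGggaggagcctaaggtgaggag

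CCAAT lay at -144 and -22 from the annotated start of Pparg-201, and on the minus strand at -26 from that of Pparg-204. Matches are a description of letters: 37.4% of 32851 promoter windows of 300 bases (250 before the start and 50 after it) hold CCAAT on either strand. The promoter table covered 8 of the 10 genes with 11 windows, and Fabp4 and Lpl are not among them. CCAAT occurred in windows of Adipoq, Cd36 and Pparg. AGGTCA, the core that nuclear receptors bind, occurred in windows of Cd36 and Pparg, against 16.3% of all windows. TATAAA was in 1 window, of Pparg, against 13.6%. The direct repeat of AGGTCA with 1 base between the copies, the form that PPAR and RXR bind together, was in no window of the members and in 0.0396% of all windows.

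The other PPAR receptors were at like levels. Ppard had 13.5 TPM in replicate 1 and 12.2 in replicate 2, and Ppara, the receptor of fat oxidation, had 9.26 and 11.7 TPM, so Pparg was 1.16 and 1.26 times Ppard and 1.69 and 1.31 times Ppara. All 10 listed transcription factors of fat cell formation were detected, with a median of 8.52 TPM. The highest was Cebpb, an early factor of the programme, with 172 TPM in replicate 1 and 192 in replicate 2. Cebpa, which acts with PPAR gamma in mature fat cells, had 44.2 and 45.6 TPM, Srebf1, a regulator of lipid synthesis, had 44.5 and 48.6 TPM, and Rxra, the partner receptor of PPAR gamma, had 16.9 and 15.6 TPM. Pparg itself thus lay near Rxra and below Cebpa in both libraries.

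Fabp4 (ENSMUSG00000062515.3, chr3:10204088-10208576, minus strand) encodes a small protein that carries fatty acids inside fat cells, macrophages and some endothelial cells. It had 789.7 TPM in replicate 1 and 749 in replicate 2, from 23412 and 23608 counts. Almost all of it was the coding transcript Fabp4-201, with 99.3% and 99.5% of the gene's TPM in the alignment-derived table and 95.2% and 94.9% in the read-derived one. The remainder was Fabp4-202, a retained-intron transcript, which had 882 and 644 counts in the first and 6310 and 6345 counts in the second. Fabp4-202 is 4231 bases long, so its share of counts is larger than its share of TPM.

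Fabp4 stood far above its relatives. Of the 10 listed fatty acid binding proteins, 3 were detected in both libraries. Fabp3, the heart and muscle form, had 26.6 TPM in replicate 1 and 14.9 in replicate 2, higher by 0.84 on the log2 scale in the library with more muscle marker RNA, whose part in it was not tested. Fabp5 had 16.1 and 13.99 TPM. Fabp4 was thus 29.6 and 50.4 times Fabp3, and 48.9 and 53.5 times Fabp5. Fabp1, the liver form, had 1.53 TPM in replicate 1 and 0.06 in replicate 2, and Fabp6 and Fabp9 were listed at 0 in both. Fabp2, Fabp7, Fabp12 and Pmp2 were each under 1 TPM in both libraries.

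Cd36 (ENSMUSG00000002944.15, chr5:17781690-17888801, minus strand) encodes a membrane protein that takes up fatty acids and oxidised lipoprotein. It had 162 TPM in replicate 1 and 163 in replicate 2, from 11547 and 12433 counts, the closest pair after Plin1 by log2 TPM ratio. Its transcripts begin at several first exons. By the annotated starts, Cd36-203 and Cd36-205, which begin farthest upstream, held 75.8% and 77.7% of the alignment-derived TPM, against 32.2% and 34.1% of the read-derived TPM. The middle starts, Cd36-202 and Cd36-204, held 16.4% and 15.1% in the alignment-derived table, against 47.5% and 46.7% in the read-derived one. The start nearest the coding sequence, used by Cd36-206, held 7.88% and 7.28%, against 20.3% and 19.2%.

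A single transcript made most of this difference. Cd36-203 had 43.8% of the gene in replicate 1 and 45.5% in replicate 2 in the alignment-derived table, from 6608 and 7405 counts. The read-derived table gave it 0.00266 and 0.00242 counts. Cd36-205, a transcript of 702 bases with the same start region, had 31.9% and 32.2%, against 32.2% and 34.1%, a mean shift of 1.12 percentage points. Cd36-203 has 29 stretches of 31 bases found in no other Cd36 transcript, and Cd36-202, which led the read-derived table with 42.0% and 40.6%, has 30. Cd36-203 led the alignment-derived table and Cd36-202 the read-derived table in both libraries, and which is nearer to the RNA of the gland was not tested.

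In its family, Cd36 was below Scarb1, the receptor that takes up cholesterol esters from high density lipoprotein in steroid-making cells. Scarb1 had 662 TPM in replicate 1 and 567 in replicate 2, so that Cd36 was 0.245 and 0.288 times as high. Scarb2, a lysosomal relative, had 21.6 and 22.6 TPM. Of the listed genes of fatty acid uptake, 9 of 9 were detected, with Acsl1, which links fatty acids to coenzyme A, highest at 154 and 147 TPM. Slc27a1, a fatty acid transporter of fat and muscle, had 59.95 TPM in replicate 1 and 74.5 in replicate 2. Cav1, a protein of caveolae, had 40.2 and 33.1 TPM, and Got2 had 39.15 and 37.15 TPM.

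Lpl (ENSMUSG00000015568.16, chr8:68880491-68907448, plus strand) encodes lipoprotein lipase, which is secreted and frees fatty acids from circulating triglyceride at the vessel wall. It had 151 TPM in replicate 1 and 171 in replicate 2, from 18862 and 22773 counts. The coding transcript Lpl-201 held 75.2% and 73.7% in the alignment-derived table and 76.0% and 73.5% in the read-derived one. Lpl-203, which the annotation marks as a target of nonsense-mediated decay, held 23.6% and 24.2%, against 22.0% and 23.3%. Lpl was the gene with several transcripts on which the tables came closest after Retn, with a largest shift in share of 1.23 percentage points. Of its 10291 stretches of 31 bases, 3.97% also occur in other genes.

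The other lipases of this family were low: Lipg had 0.45 TPM in replicate 1 and 0.23 in replicate 2, Lipc 0.03 TPM and 0, and Pnlip 0 and 0.06 TPM. Of 10 listed genes that act on the enzyme, 7 were detected. Gpihbp1, which anchors lipoprotein lipase on capillary endothelium, had 10.2 and 10.6 TPM. Lmf1, which with Sel1l folds the enzyme, had 11.2 and 11.5 TPM, and Sel1l had 46.0 and 47.6 TPM. Angptl4, an inhibitor of the enzyme, had 24.8 TPM in replicate 1 and 19.0 in replicate 2. Apoc2, its activator in blood, had 0.02 and 0.16 TPM.

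Plin1 (ENSMUSG00000030546.14, chr7:79720218-79732903, minus strand) encodes perilipin 1, the coat of the fat cell's droplet that gates lipolysis. It had 151.5 TPM in replicate 1 and 151.9 in replicate 2, from 9178 and 9651 counts. Its log2 TPM ratio was the smallest in size of the 10 genes. By the ratio of count shares, the libraries were closer for Pparg at 1.001 and Cd36 at 1.007 than for Plin1 at 1.03. The alignment-derived table was led by Plin1-206, with 43.5% and 40.2%, followed by Plin1-205 with 27.6% and 30.9%. In the read-derived table they were closer: Plin1-206 had 32.8% in replicate 1 and 30.3% in replicate 2, and Plin1-205 had 31.2% and 36.4%. Plin1-205 is an annotated transcript of 647 bases and has no stretch of 31 bases of its own, since other Plin1 transcripts hold all of them.

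All 5 perilipins were detected. Plin2, the perilipin found on droplets in most tissues, had 131 TPM in replicate 1 and 127 in replicate 2, so Plin1 was 1.16 and 1.20 times as high. Plin3 had 23.3 and 32.1 TPM, Plin4 25.3 and 22.8 TPM, and Plin5, the form of oxidative tissues, 21.9 and 18.9 TPM. The wider list of droplet and lipolysis genes had 13 of 14 detected, with a median of 44.2 TPM. It was led by Pnpla2, the lipase that starts triglyceride breakdown, with 238 TPM in replicate 1 and 266 in replicate 2. Lipe, hormone-sensitive lipase, which also releases cholesterol from its esters, had 105 and 108 TPM.

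Cidec (ENSMUSG00000030278.11, chr6:113424634-113435760, minus strand) encodes a protein that fuses droplets into a large one. It had 91.35 TPM in replicate 1 and 105 in replicate 2, from 4376 and 5348 counts. Cidea, its counterpart in brown fat, was higher in both libraries at 139 and 152 TPM, so Cidec was 0.657 and 0.687 times as high. Cideb, the form known in liver, had 0.12 and 0.39 TPM. Cidec-202 led both tables, with 49.9% and 51.6% in the alignment-derived one and 39.4% and 43.5% in the read-derived one. Cidec-204, an annotated transcript of 376 bases, had 8.65% and 10.5% in the first, against 38.4% and 41.6% in the second. Its counts were 78.9 and 118 in the first, against 218 and 271 in the second.

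The effective length by which counts are divided also differed for such short transcripts. In the alignment-derived table it was 99 bases less than the length for longer transcripts. In the read-derived table of replicate 1 it was 329.1 bases less. For Cidec-204 it was 277 bases in the alignment-derived table and 96.3 bases in the read-derived table of replicate 1, so that the same count gave a higher TPM in the read-derived table. Over the detected nuclear protein-coding genes the read-derived level was a median of 1.74 times the gene table level, with 1.48 and 2.31 at the 10th and 90th percentiles. The members ran from 1.22 times for Retn to 2.60 times for Lep, with Cidec at 2.52, Pparg at 2.27 and Adipoq at 2.21.

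Adipoq (ENSMUSG00000022878.5, chr16:23146536-23158028, plus strand) encodes adiponectin, a hormone secreted by fat cells that raises insulin sensitivity. It had 83.0 TPM in replicate 1 and 87.8 in replicate 2, from 3487 and 4054 counts. Its full-length transcript Adipoq-201 held 96.2% and 100% in the alignment-derived table, against 65.9% and 69.7% in the read-derived one. The rest was Adipoq-202, an annotated transcript of 539 bases, with 50.2 counts and 0 in the first and 345 and 337 counts in the second. Both adiponectin receptors were detected, Adipor1 at 41.4 and 42.3 TPM and Adipor2 at 59.1 and 60.8 TPM. Cdh13, which binds the hormone's large forms, had 1.38 TPM in replicate 1 and 1.88 in replicate 2.

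Adipoq was the highest of the 8 listed genes with the C1q and TNF related fold. C1qtnf12 came next with 25.0 TPM in replicate 1 and 27.1 in replicate 2, so Adipoq was 3.33 and 3.24 times as high. C1qtnf1 had 6.51 and 6.88 TPM, and C1qtnf3 had 0.46 and 0.37 TPM. C1qtnf2, C1qtnf5, C1qtnf7 and C1qtnf9 lay between these, all above 1 TPM in both libraries.

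Lep (ENSMUSG00000059201.12, chr6:29060220-29073877, plus strand) encodes leptin, the hormone by which white fat signals its stores to the brain. It had 72 counts in replicate 1 and 45 in replicate 2, or 0.63 and 0.46 TPM. Its share of all counts was 1.74 times as high in replicate 1, with an exact 95% Clopper-Pearson interval from 1.18 to 2.58 that covers counting error only. The log2 ratio of TPM + 0.1 was smaller, at 0.38 against 0.80 for the count shares, and with TPM + 0.01 it was 0.45. In replicate 2 the gene table's transcripts gave 0.10 of the 0.46 TPM to Lep-202, a transcript of 420 bases, on 1.26 counts. That narrows the TPM ratio, and the pseudocount of 0.1 narrows it further. Over the settings tried the log2 ratio of Lep ran from 0.16 to 0.91. Lep-201, the full coding transcript, had 0.63 TPM in replicate 1 and 0.36 in replicate 2. In the read-derived values, 2 counts in each library put 41.0% and 50.7% of the gene's TPM in Lep-202, and the gene then passed 1 TPM, at 1.59 TPM in replicate 1 and 1.25 in replicate 2.

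Lep has a binding motif of C/EBP factors just before its start, and is shown because, of the 8 genes in the promoter table, it was the only one whose window held the palindrome TTGCGCAA. The window is chr6:29059971-29060219 on the plus strand, from the RefSeq table on GRCm38.p6, and capitals mark the palindrome, which reads the same on both strands.

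Lep-201 upstream window: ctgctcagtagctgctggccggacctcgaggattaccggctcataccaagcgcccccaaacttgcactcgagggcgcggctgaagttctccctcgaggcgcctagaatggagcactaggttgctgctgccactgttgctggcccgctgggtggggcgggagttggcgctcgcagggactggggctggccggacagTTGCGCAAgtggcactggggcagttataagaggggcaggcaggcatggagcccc

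The palindrome lay at -54 to -47 from the annotated start, and 60 of the 32851 windows, or 0.183%, held it. Lep was the lowest of the 10 genes. Cebpb and Cebpa, of the family that binds such motifs, had the levels given above, and whether they act on Lep here was not tested. The leptin receptor gene Lepr had 3.37 TPM in replicate 1 and 4.81 in replicate 2.

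Retn (ENSMUSG00000012705.16, chr8:3655770-3660110, plus strand) encodes resistin, which in mice is secreted by fat cells. It had 27.9 TPM in replicate 1 and 27.2 in replicate 2, from 781 and 817 counts, and 99.7% of it was Retn-201 in both libraries. Retnla, a relative made by macrophages and fat, had 5.32 and 3.31 TPM, so Retn was 5.25 and 8.22 times as high. Retnlb was listed at 0 in both libraries, and Retnlg had 3 counts in replicate 1 and 0 in replicate 2. Cap1, proposed as a receptor of resistin in humans, had 45.7 and 42.1 TPM. Of the 1548 stretches of 31 bases in Retn, 3.23% also occur in other genes.

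Among other adipokines, 6 of 10 listed genes were detected, with a median of 4.77 TPM. The highest were Nampt, an enzyme of NAD synthesis also found outside cells, with 43.1 TPM in replicate 1 and 36.6 in replicate 2, Angptl4 (above), Rarres2, which encodes chemerin, with 20.5 and 16.02 TPM, and Rbp4, which carries retinol, with 12.65 and 12 TPM. Apln, Lcn2 and Sfrp5 were among those not detected in both libraries. Cfd and Adipoq were each above every gene of that list.

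Cfd (ENSMUSG00000061780.6, chr10:79890853-79892655, plus strand) encodes adipsin, also called complement factor D, the protease that cleaves factor B to start the alternative pathway of complement. It had 416 TPM in replicate 1 and 485 in replicate 2, from 12221 and 15286 counts, the largest difference among the detected members. Its annotated coding transcripts differ at the junction of exons 1 and 2, where the second exon of Cfd-201 begins 3 bases earlier. The junctions are shown because the tables disagree on whether the shorter form was present (chr10:79890951-79891488, plus strand, mm10, with the intron removed). Capitals mark the bases found in Cfd-201 and not in Cfd-202.

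Cfd-201 junction: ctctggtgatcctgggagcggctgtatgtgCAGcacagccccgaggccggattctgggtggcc

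Cfd-202 junction: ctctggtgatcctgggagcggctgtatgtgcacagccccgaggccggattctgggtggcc

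In the alignment-derived table Cfd-202 held 15.3% of the gene in replicate 1 and 15.8% in replicate 2, or 63.5 and 76.6 TPM from 1768 and 2288 counts. The deposited intervals ran from 56.3 to 68.4 TPM and from 69.2 to 81.6 TPM. The read-derived table listed it at 0 in both libraries. Cfd-202 has 871 bases against 922 for Cfd-201, ends earlier, and has 27 stretches of 31 bases of its own. Unlike the short transcripts above, it was thus the form that the read-derived table left out.

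The partners of adipsin were much lower than it, apart from C3. C3, the central component of complement, had 233 TPM in replicate 1 and 189 in replicate 2. Cfb, the factor B that adipsin cleaves, had 4.76 and 3.45 TPM, and Cfp, which stabilises the resulting enzyme, had 3.27 and 2.14 TPM. Cfi, a protease that shuts the pathway down, had 8 counts in replicate 1 and 0 in replicate 2. Masp1, whose product MASP-3 activates the precursor of adipsin, had 43.7 and 46.05 TPM. Of 10 matched genes of the list 8 were detected, with a median of 3.92 TPM.

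**Figure D2:**
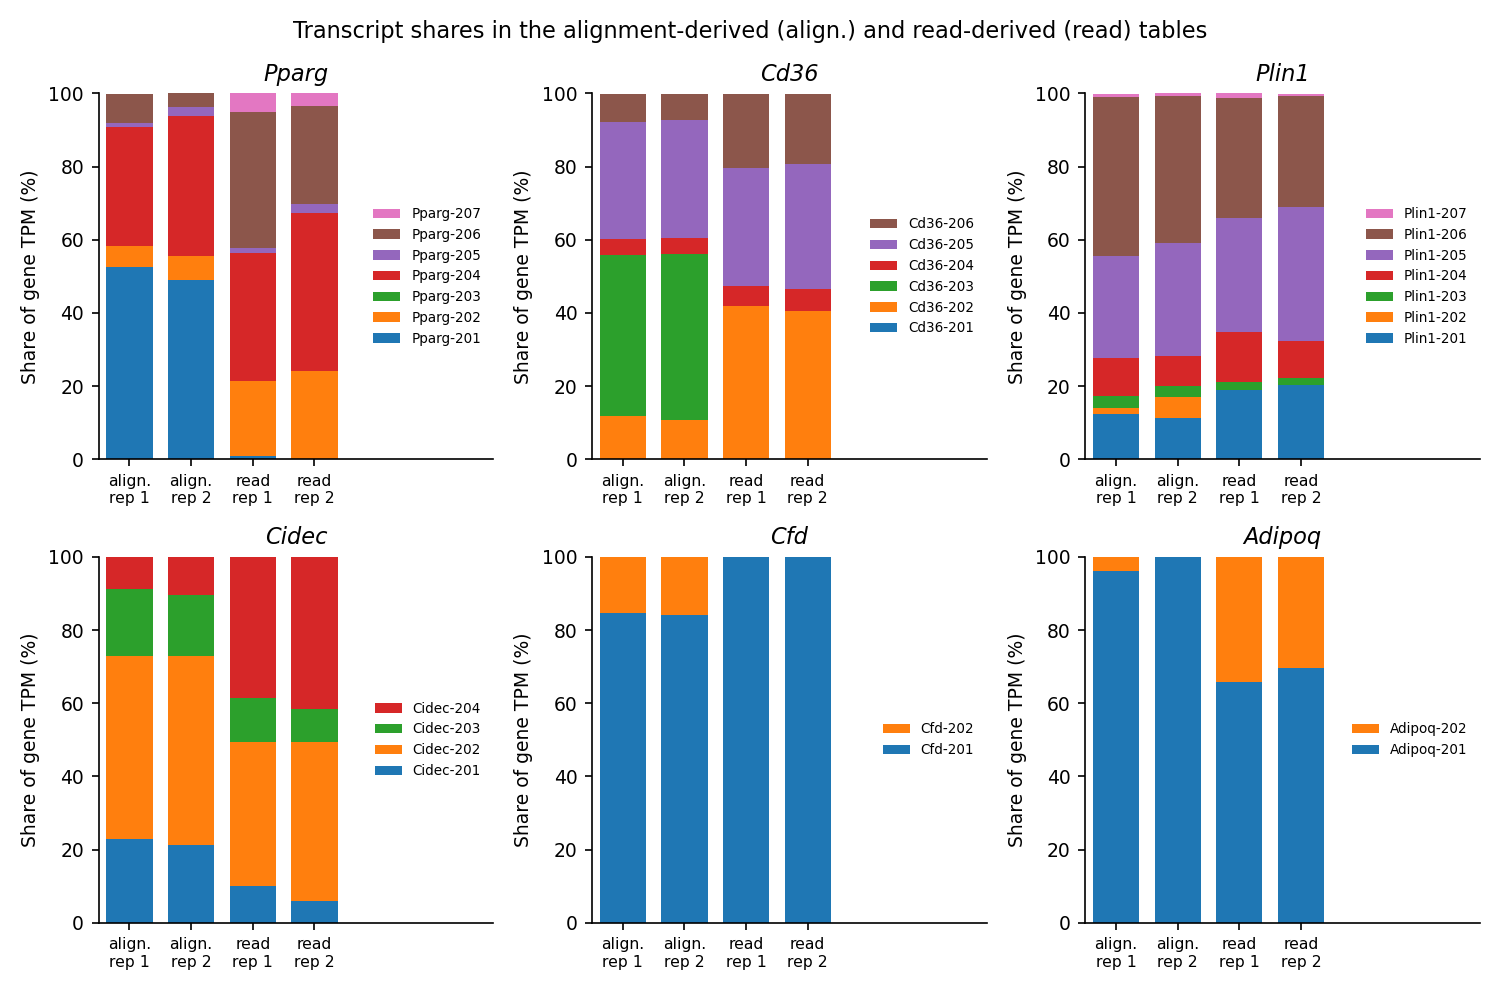
Share of each gene's TPM held by its annotated transcripts, in percent, for 6 genes. In each panel the left pair of bars is the alignment-derived table and the right pair the read-derived table, replicate 1 before replicate 2. Pparg-201 holds 52.6% and 49.1% in the left pair and under 1% in the right pair, Cd36-203 is seen in the left pair alone, and Adipoq-202 and Cidec-204 take larger shares.

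Of the 9 detected members, all with more than 1 annotated transcript, 3 had a different leading transcript in the read-derived table: Plin1, Pparg and Cd36. Among detected protein-coding genes with several transcripts 23.9% did. A transcript share shifted by more than 40 percentage points for 2 members, Pparg at 50.4 and Cd36 at 44.6, against 11.4% of those genes. Next were Cidec at 30.5 and Adipoq at 30.3 percentage points, then Cfd at 15.6, Plin1 at 10.3, Fabp4 at 4.27, Lpl at 1.23 and Retn at 0.388. Between the libraries the leading transcript differed for none of the 9 in the alignment-derived table, against 9.99%, and for 2, Plin1 and Pparg, in the read-derived table, against 12.1%. The members' 39 annotated transcripts overlapped no exon of another gene. The strand setting of the counting is not given in the sources used here. All 10 members had whole-number counts in both libraries, as did 84.1% of the detected nuclear protein-coding genes.

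The libraries differed little in these genes. The median log2 ratio of TPM + 0.1, replicate 1 over replicate 2, was -0.01 over the 10 members, beside -0.04 over the detected nuclear protein-coding genes, whose SD was 0.25. None of the 9 members with 200 or more summed counts was 2-fold apart, against 0.904% of such genes, a share so low that this does not set the members apart. The detected members ran from -0.22 for Cfd to 0.08 for Fabp4. Cidec was at -0.20, Lpl at -0.18 and Adipoq at -0.08, while Cd36, Plin1, Pparg and Retn were at -0.01, -0.0033, 0.03 and 0.04. Of the 10 genes 6 were lower in replicate 1, against 58.6% of the detected nuclear protein-coding genes.

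For 4 genes, Fabp4, Cfd, Cidec and Lpl, the deposited TPM intervals of the libraries did not overlap, against 14.3% of the detected nuclear protein-coding genes. The mean levels of these 4 were 98.0 to 769 TPM. The median over the detected nuclear protein-coding genes was 10.3 TPM, and that share was not matched for level. Cfd's interval was 401 to 415 TPM in replicate 1 and 469 to 484 TPM in replicate 2. Fabp4's was 765 to 785 and 726 to 745 TPM. The deposited TPM of Fabp4 and of Cfd lies above its own interval in both libraries. Such intervals carry no spread between animals. Under scaling of the counts by the ERCC spike-ins, which took 0.902% of counts in replicate 1 and 0.976% in replicate 2, the median of all detected protein-coding genes moved to 0.09 and that of the members to 0.12. The signs for Plin1 and Cd36 turned under count scaling, and that of Adipoq under ERCC scaling, while Retn turned in the read-derived table. Fabp4, Cfd, Lep, Pparg, Cidec and Lpl kept their sign in all 9 settings.

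**Figure D3:**
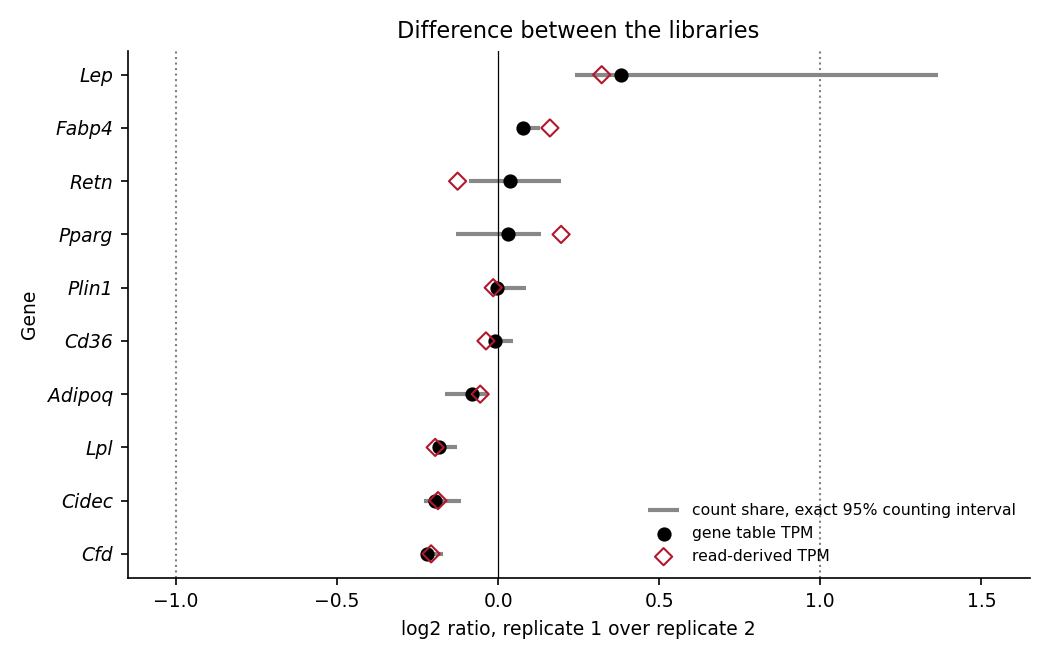
Difference between the libraries as the log2 ratio of replicate 1 over replicate 2, for each gene. Dots are gene table TPM + 0.1, diamonds the read-derived TPM, and grey bars the exact 95% counting interval of the ratio of count shares. The dotted lines are 2-fold, and all dots lie between them, from -0.22 for Cfd to 0.38 for Lep.

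Brown fat genes were present beside the members. Of 12 listed markers 10 were detected, with a median of 24.8 TPM and summed levels of 1068 TPM in replicate 1 and 1012 in replicate 2. Ucp1, the uncoupling protein that makes heat, had 319.7 and 257 TPM, and Cox8b, a cytochrome oxidase subunit of brown fat and striated muscle, had 327 and 324 TPM. Cidea is given above. Cox7a1 had 122 and 134 TPM, Pdk4 99.35 and 83.4 TPM, and Cpt1b 35.6 and 43.6 TPM. The levels of others were far lower: Elovl3 had 11.8 and 8.04 TPM, Dio2 8.21 and 5.5 TPM, Ppargc1a 3.49 and 2.53 TPM, and Prdm16 1.51 and 1.95 TPM. Lhx8 had 0.21 TPM in both, and Zic1, a gene that marks the brown fat between the shoulder blades, was listed at 0 in both. Of 5 listed genes of white fat position and identity 2 were detected, Hoxc8 at 8.04 and 8.95 TPM and Nnat at 16.6 and 15.2 TPM. The others were Hoxc9 at 0.39 and 0.22 TPM, Hoxc10 at 0.05 and 0.06 TPM, and Wfdc21 at 0 and 0.08 TPM. Adipoq, made in both kinds of fat, was thus below Ucp1 and Cox8b, and Lep, made mainly in white fat, was under 1 TPM.

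The other cells known to carry these genes were also present. All 10 endothelial markers were detected, with summed levels of 217 TPM in replicate 1 and 207 in replicate 2, led by Plvap at 59.3 and 60.9 TPM. All 8 macrophage markers were detected, with sums of 84.1 and 75.1 TPM, led by Lyz2 at 33.3 and 24.1 TPM. Cd36, at 162 and 163 TPM, and Lpl, at 151 and 171 TPM, were above the summed macrophage list and below the summed endothelial list in both libraries. Fabp4 was above both sums and Pparg below both. A sum of chosen markers does not give the level of these genes in such cells. How much of Cd36, Lpl, Fabp4 and Pparg came from each kind of cell was not tested. All 8 progenitor markers were detected, the highest being Dlk1 at 167 and 149 TPM, a gene also known in the adrenal gland itself, and Ly6a at 18.5 and 17.6 TPM.

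**Figure D4:**
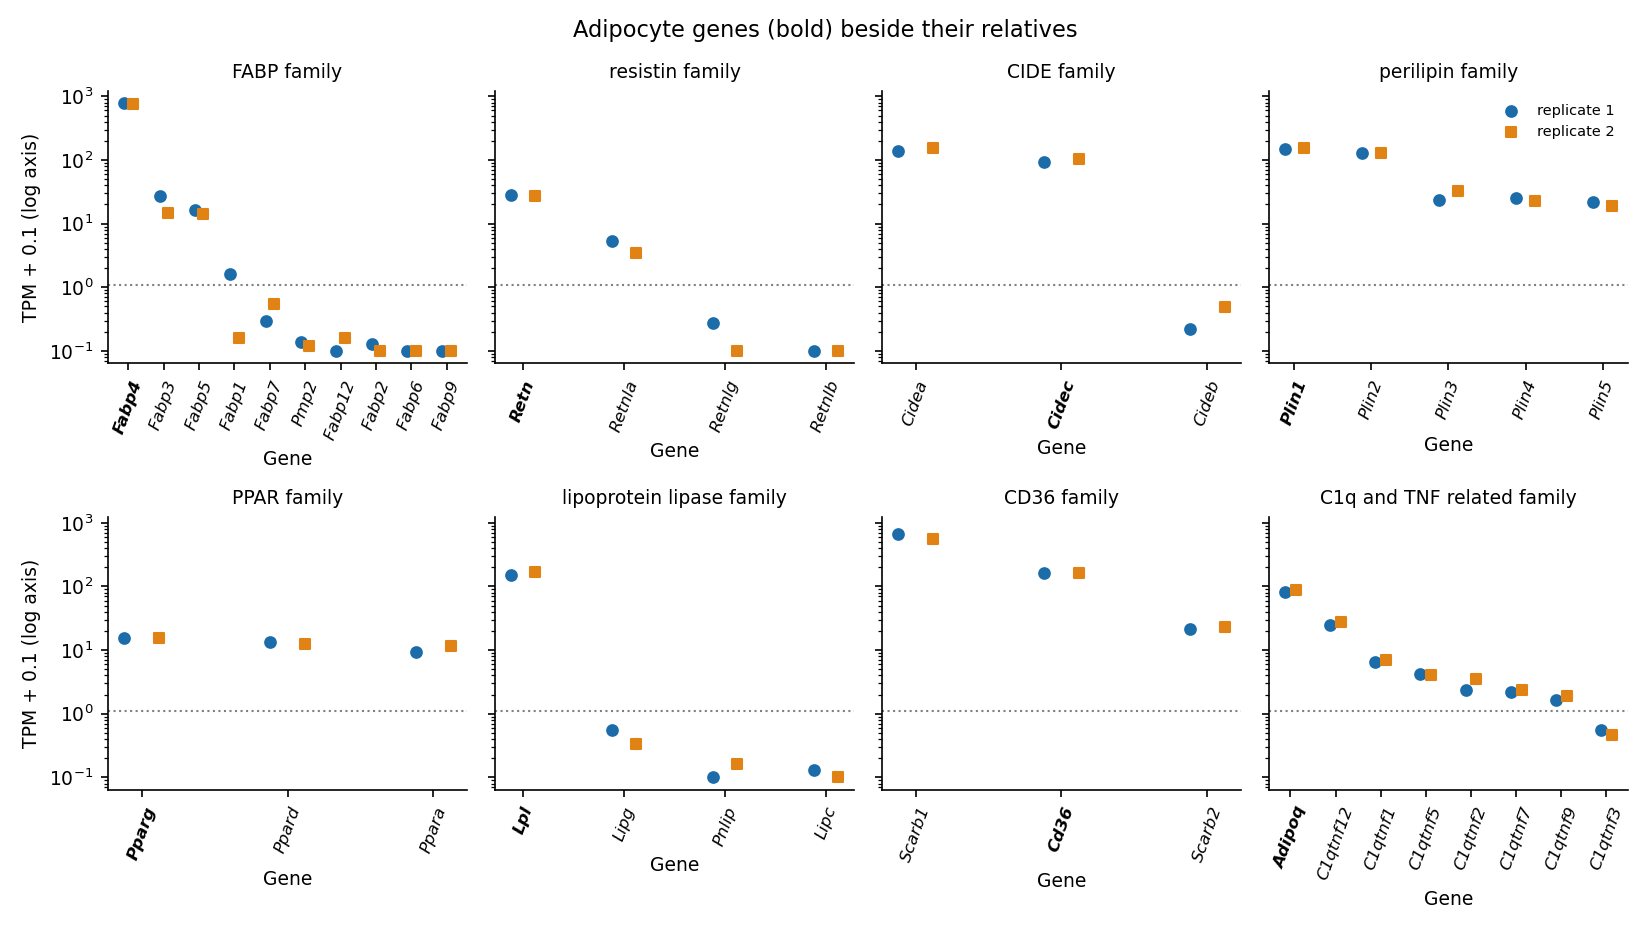
TPM + 0.1 on a log axis for the members (bold) and their listed relatives in 8 gene families, replicate 1 (circles) left of replicate 2 (squares). The dotted line is the detection level of 1 TPM. Fabp4, Retn, Plin1, Pparg, Lpl and Adipoq are the highest of their families in both libraries, whereas Cidea is above Cidec and Scarb1 above Cd36.

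Enzymes that build triglyceride stood at levels like those of the members. Of 10 listed genes 9 were detected, with a median of 133 TPM. Gpd1, which makes glycerol phosphate, had 317 TPM in replicate 1 and 287 in replicate 2. Pck1, which feeds the same step in fat, had 259 and 248 TPM, Gpam, the first acyltransferase, 202 and 184 TPM, and Dgat2, which adds the last fatty acid, 159 and 169 TPM. Dgat2 was thus close to Plin1, Lpl and Cd36, and Mogat1 was under 1 TPM in both.

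**Figure D5:**
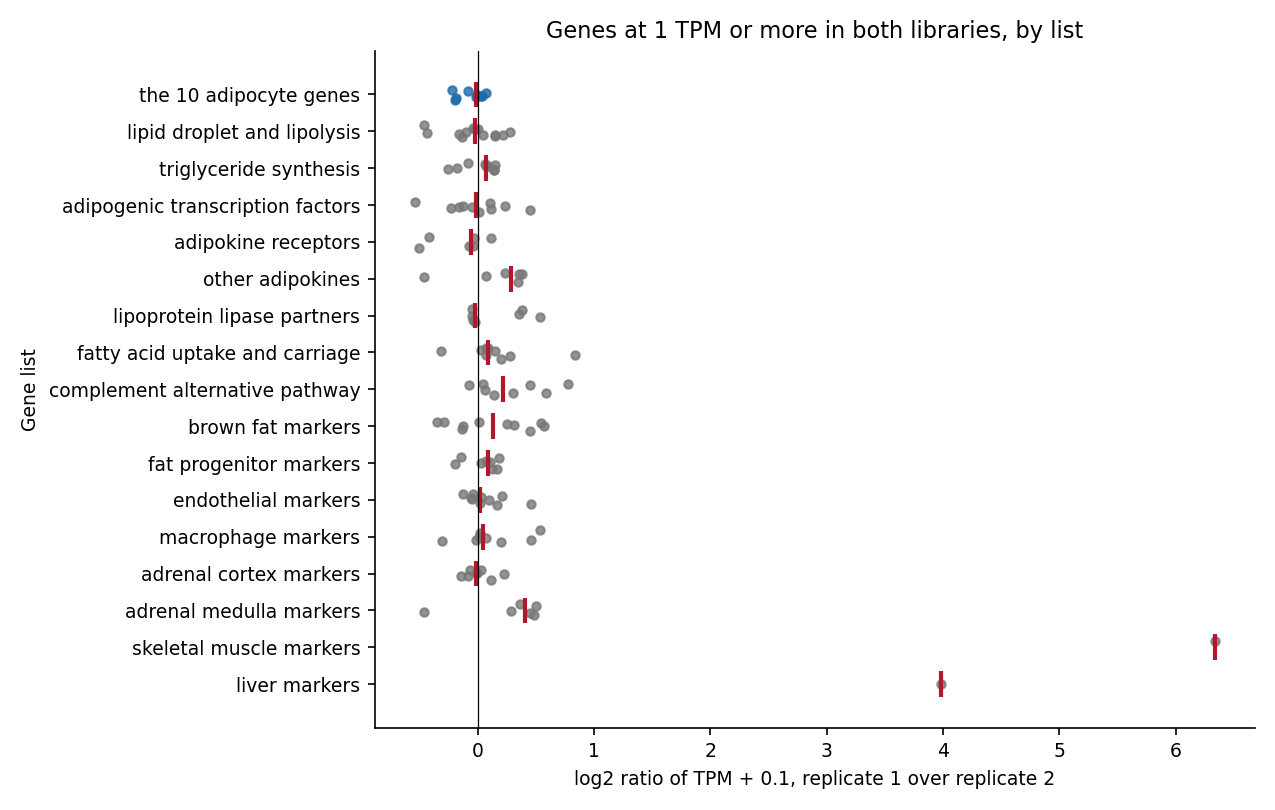
Log2 ratio of TPM + 0.1, replicate 1 over replicate 2, for the detected genes of each list, with 1 dot per gene and a red bar at the list's median. The 9 detected members lie from -0.22 to 0.08, while Acta1, the muscle gene detected in both libraries, lies at 6.34 and Alb, the liver gene detected in both, at 3.98.

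Member ratios lay near 0 where those of the muscle and medulla markers did not. The 6 medulla markers had a median log2 ratio of 0.41 and the detected skeletal muscle marker 6.34, while the detected members had -0.01 and the 8 cortex markers -0.01. The droplet list was at -0.02, triglyceride synthesis at 0.07, the transcription factors at -0.02, the endothelial list at 0.02 and the macrophage list at 0.05. The brown fat list was at 0.13, with detected genes from -0.35 to 0.57. Complement genes stood at 0.22 and the other adipokines at 0.29 as medians. Their detected genes ran from -0.07 to 0.78 and from -0.46 to 0.38, beside -0.22 for Cfd.

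Over the 2 libraries, the protein-coding gene nearest in level to each member was Aldoa for Fabp4, Rps14 for Cfd, Dhrs7 for Adipoq, Vsig10l for Lep, Klhl9 for Retn, Sdhb for Plin1, AI837181 for Pparg, Anp32a for Cidec, Etfb for Lpl and Pgrmc1 for Cd36. The likeness is the Euclidean distance of log2(TPM + 1) over these libraries, which ran from 0.00427 for Retn and Klhl9 to 0.0574 for Cfd and Rps14. With 2 points it says that the levels were close and no more. Aldoa, a glycolytic enzyme, had 790.65 TPM in replicate 1 and 746 in replicate 2, beside 789.7 and 749 TPM for Fabp4.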

How the data were processed

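Per the file headers, the authors deposited for each library a gene table and a transcript table with an expected count and TPM per feature, and a second transcript table with an estimated count and TPM. Per the text beside the deposited files, these use mm10 and GENCODE M21, the first kind from transcriptome alignments and the second directly from the reads. The bounds of each TPM interval in the deposited tables are read as a signal of unstated level. Deposited TPM are scaled over all entries, spike-ins included. The sources used here name no tool, version or filter for them.

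Levels are the gene table's TPM, since TPM is per length, and transcript shares were computed from TPM. A gene was called detected at 1 TPM or more in both libraries. Log2 ratios are of TPM + 0.1, and 2-fold calls need 200 or more summed counts. Read-derived totals were 34946406 and 37598352 counts. Over 16564 genes, the libraries differed by a chi-square of 21.5 per degree of freedom, so they are not 1 library deposited again. Exact intervals are Clopper-Pearson at 95% and cover counting error only. Expected counts were rounded to whole numbers for scaling with edgeR 4.0.16 (TMM) and DESeq2 1.42.0 in R 4.3.3; no test was run. Python 3.11.15, numpy 2.4.6, pandas 2.3.3, scipy 1.17.1 and matplotlib 3.10.9 did the rest.

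The members and gene lists were chosen with earlier results of these data known. The plan was to name the members, all family genes, and from each other list the 4 highest genes, those 2-fold apart and those at 0. Not all of these are named here, and some further genes were chosen after their values were seen. Many genes of the lists enter counts and sums without being named. The alternatives were another table, denominator, point estimate, pseudocount, threshold or scaling, and leaving out a library. C5 matched no record under that symbol.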

Additional observations from a re-analysis of the deposited data

How the results depend on the processing

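The median level of the members, 124.8 TPM, was 260 TPM in the read-derived table, 400.2 TPM over nuclear protein-coding genes alone and 152 TPM over the members at 1 TPM or more. Without either library it ran from 120.9 to 128 TPM. The median log2 ratio of -0.01 moved to 0.12 under ERCC scaling, where the median of all detected protein-coding genes was 0.09. Detected members numbered 9 or 10, the tenth being Lep, and 0 were 2-fold apart under every scaling, pseudocount and table tried. Leaving out a library moves a mean of 2 by less than its SD by construction and is set aside here. Then 24 of 30 single-gene levels and 9 of 10 leading transcript shares moved by more than the spread between the libraries. All 10 levels moved upward in the read-derived and in the rescaled values. The change of denominator raises all genes of a library by the same factor, so the moves it made were also fixed by construction. Read-derived levels were higher over the detected nuclear protein-coding genes too, by a median of 1.74 times. Of 80 single-gene ratios, 20 moved by more than the distance from the midpoint to a bound of the counting interval of the count-share ratio. Leaving out a library gives no ratio. No paired analysis was possible because there is 1 group. Lep rests on few counts, 72 and 45. Over the settings its log2 ratio ran from 0.16 with TPM + 1, a pseudocount above its own level, to 0.91 under ERCC scaling of counts. The cause of the difference between the libraries in Lep was not tested.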
